A study of Drosophila melanogaster with 4 samples.

Results

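Metallothioneins and the copper and zinc transport genes around them were examined in fat bodies of Drosophila melanogaster larvae fed with or without palm fruit juice (PFJ). The set held 10 genes, listed by name with earlier results of these data known. It comprised 5 metallothionein genes (MtnA, MtnB, MtnC, MtnD and MtnE), the copper importer genes Ctr1A and Ctr1B, the regulator gene MTF-1 and the zinc exporter genes ZnT35C and ZnT63C. All 10 were measured by a row annotated to that gene alone, as were 13402 genes in all.

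The larvae were of strain w1118, a laboratory stock that lacks the white eye-colour gene product, and were 5 days old. Controls ate a semi-purified diet from the egg stage, and the PFJ group ate the same diet with the juice mixed in, at 4 ml of juice, or 19000 mg per kg and 0.86 mg per kcal of diet in gallic acid equivalents, a measure of phenolic content, as the labels state the dose. Each group had 2 Affymetrix arrays, and each array carried total RNA pooled from the fat bodies of 10 larvae, so that no value belongs to a single animal. The labels do not say whether the pools came from separate cultures, and they do not give the copper, zinc or iron content of either diet, so p-values measure only the spread between these pools.

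Metallothioneins are small proteins rich in cysteine, whose thiol groups hold copper, zinc and cadmium and keep these metals from reacting freely in the cell. In flies, the zinc-finger factor MTF-1 binds metal response elements in metallothionein promoters and drives their transcription under metal load, and it also drives Ctr1B when copper is scarce. Ctr1 proteins bring copper into cells, ZnT proteins move zinc out of the cytosol, and Zip proteins move it in. The midgut takes up dietary metals and the Malpighian tubules store zinc, while the fat body is the larval organ of storage and secretion.

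Values below are log2 intensities made by the authors with RMA, a method that corrects background, equalises the arrays and summarises the probes of each gene, so that 1 unit is a 2-fold difference in signal. Array medians over all rows lay between 3.93 and 4.09. Detection above background could not be called from summarised values, and levels are not ranked between genes because probes differ in how brightly they hybridise. The arrays of a group were not always closest to each other. Pearson's r across genes, which are not independent replicates, was 0.910 between the controls and 0.961 between the PFJ arrays. For arrays of different groups it was 0.920 to 0.968, the highest being control replicate 1 with PFJ replicate 1. PFJ replicate 2 was closest to PFJ replicate 1. Fat body markers were bright in every array, with 5 of 8 listed genes measured at single levels from 9.93 to 12.32 and a mean of 11.0 (replicate 1) and 10.85 (replicate 2) for controls, against 11.35 and 11.37 under PFJ. Markers of midgut and testis were uneven between arrays, and their detection was not called. The mean of 13 measured midgut enzyme genes of 16 listed was 5.76 and 7.54 in controls, against 6.67 and 7.64 under PFJ. The mean of 12 testis genes was 5.85 and 3.09 in controls, against 5.54 and 4.46 under PFJ. In such pools, fewer cells of a type and less RNA per cell cannot be told apart.

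The comparison asked whether the metal-handling genes of the fat body differ between larvae fed PFJ and controls. MtnD had the largest difference among the members. Both PFJ arrays lay above both controls in MtnD, its neighbour MtnE and MTF-1, and in 15.5% of all genes. For MtnE the nearest arrays read 3.95 under PFJ and 3.92 in controls. Its groups overlapped after centring each array on its median or repeating quantile normalisation. MtnA, MtnB and MtnC overlapped between diets. Copper importers and zinc exporters overlapped as well. No member passed limma's test after Benjamini-Hochberg adjustment over the 13402 genes, where every member had an adjusted p of 1.0. The test called 0 of the 13402 genes, or 0.0% in each direction, at an adjusted p under 0.05. At an unadjusted p under 0.05 it held 1 of the 10 members, MtnD, as higher with PFJ, against 1.74% of all genes in that direction and 2.78% in either. In 6 of 12 other settings MtnD did not stay under that unadjusted threshold.

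**Figure D1:**
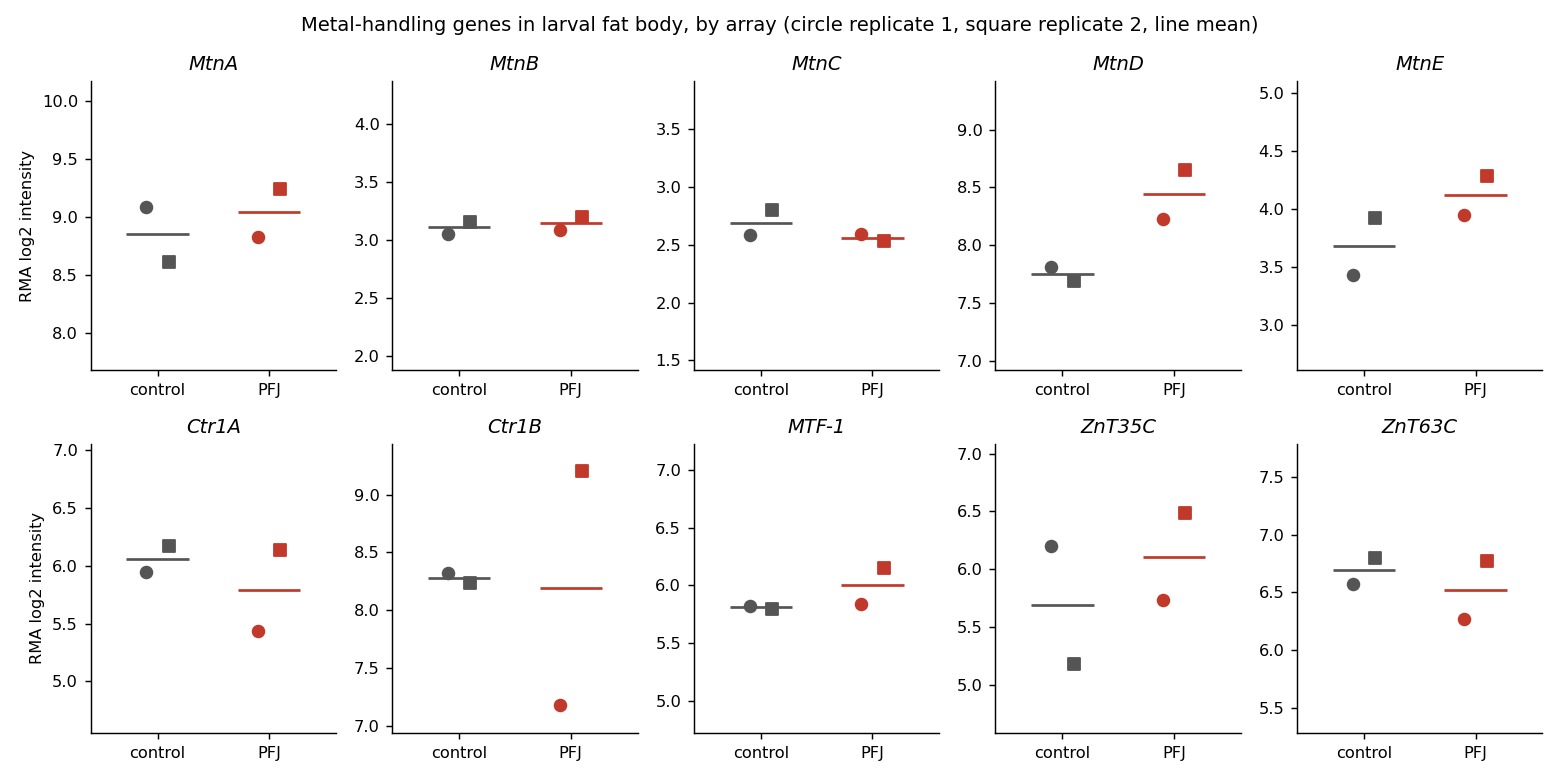
RMA log2 intensity of each member in the 4 arrays, with controls in grey and PFJ in red, circles for replicate 1, squares for replicate 2 and a line at each group's mean; every panel spans the same number of log2 units. MtnD reads 7.81 and 7.69 in controls, against 8.23 and 8.65 under PFJ, while the PFJ arrays of Ctr1B lie at 7.18 and 9.20 on either side of the controls.

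Among the metallothioneins, MtnD read 7.81 in control replicate 1 and 7.69 in control replicate 2, against 8.23 and 8.65 under PFJ, and pairs of values below keep this order of replicates. Both PFJ arrays were above both controls, and the lower PFJ array exceeded the higher control by more than the controls differed from each other, at 0.12. The PFJ arrays were 0.42 apart, about as far as the lower of them lay above the higher control. The group means were 7.75 ± 0.08 and 8.44 ± 0.30 (SD, n = 2 each), a log2 difference of 0.69 (SE 0.22, 95% interval 0.08 to 1.30) or 1.61-fold. By limma's moderated test across all genes the unadjusted p was 0.0341 and the adjusted p 1.0. A difference of this size or larger was found in 5.04% of all genes, and MtnD ranked 243 by p. In knockout flies MtnD has had only a minor part in metal resistance next to MtnA and MtnB.

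MtnE, a metallothionein gene recognised later than the other members, lies beside MtnD with no other gene between them in the RefSeq gene table of Release 6. It read 3.43 and 3.92 in controls, against 3.95 and 4.28 under PFJ. Both PFJ arrays were again the higher ones, although PFJ replicate 1 was above control replicate 2 by less than the gap of 0.49 within the controls. The log2 difference was 0.44 (SE 0.26, 95% interval -0.28 to 1.16), with an unadjusted p of 0.166 by limma. MtnD and MtnE were thus the metallothioneins whose groups did not overlap, which held with PFJ higher for 15.5% of all genes. The difference of MtnE was smaller than the spread within its controls.

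MtnA, the metallothionein best known for its response to copper, read 9.09 and 8.61 in controls, against 8.83 and 9.24 under PFJ. The arrays of both diets interleaved, and its log2 difference of 0.19 (SE 0.27, 95% interval -0.57 to 0.94) was below the gaps of 0.48 within controls and 0.41 within PFJ. MtnB, best known for its response to cadmium, read 3.05 and 3.16 in controls, against 3.09 and 3.20 under PFJ. All 4 of its arrays lay within 0.15 of each other, below the medians of the arrays. Its difference was 0.04 (SE 0.17), and at levels for which detection was not called this narrow spread sets no limit on the transcript. For MtnC the readings were 2.58 and 2.80 in controls, against 2.59 and 2.53 under PFJ, which overlap, and the difference was -0.13 (SE 0.18). MtnF, a further metallothionein gene that was not on the list and was looked up after the values of the others were seen, read 3.59 and 3.19 in controls, against 3.47 and 3.40 under PFJ, a difference of 0.05 (SE 0.21).

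The metallothioneins were also set against each other within each array, where a factor shared by a whole array drops out. Taken relative to MtnA and to the mean of the controls, MtnD lay at -0.18 and 0.18 in controls and at 0.50 and 0.51 with PFJ. The PFJ arrays were both above the controls, with a shift of 0.50 on the log2 scale (SD 0.25 in controls and 0.01 with PFJ). MtnD was already the member with the largest difference, so this shift is not separate evidence. Relative to MtnE the shift was 0.25, and the diets overlapped. No test was run on these shifts, because 2 arrays against 2 cannot give an exact permutation p below 0.333.

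Marker values beside the MtnD and MtnE readings were as follows. The midgut enzyme mean was 1.79 apart within controls and 0.97 apart within PFJ, against a difference between diets of 0.50. MtnD was lower in the control array with the higher midgut mean (replicate 2) and higher in the PFJ array with the higher midgut mean (also replicate 2). Hemocyte markers, from blood cells that adhere to the fat body, had a mean over 8 genes of 4.34 and 4.73 in controls, against 4.49 and 4.97 under PFJ, at single levels from 2.50 to 6.99 in controls and from 2.23 to 6.85 with PFJ. The mean of the fat body markers was 0.44 higher with PFJ, and 0.23 higher without Obp99b, a secreted odorant-binding protein gene that differed by 1.26, while the storage protein gene Lsp2 differed by -0.07. The part of these tissues in the metallothionein values was not tested.

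MTF-1, which encodes the regulator, read 5.82 and 5.80 in controls, against 5.84 and 6.15 under PFJ. The groups did not overlap, but PFJ replicate 1 was at the level of the controls and PFJ replicate 2 carried the difference of 0.18 (SE 0.19, 95% interval -0.35 to 0.71, unadjusted p of 0.392 by limma). The controls were only 0.02 apart, closer than in most genes, as 95.1% of all genes had a gap at least as wide.

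Of the copper importers, Ctr1B had the widest range over the arrays of any member. Ctr1B, the importer that flies use for dietary copper uptake and that MTF-1 controls, read 8.32 and 8.24 in controls, against 7.18 and 9.20 under PFJ. The PFJ arrays lay on opposite sides of the controls and 2.02 apart, a gap that 0.448% of all genes reached or passed. Its mean difference was therefore -0.09 with an SE of 0.73, and the 95% interval ran from -2.12 to 1.93. These arrays cannot show even a large difference in Ctr1B between diets. Ctr1A, the broadly expressed importer, read 5.95 and 6.17 in controls, against 5.44 and 6.14 under PFJ, which overlap. PFJ replicate 1 was the low array here too, and the difference was -0.27 (SE 0.30). The PFJ arrays of Ctr1A were 0.70 apart, a gap that 13.6% of all genes reached.

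**Figure D2:**
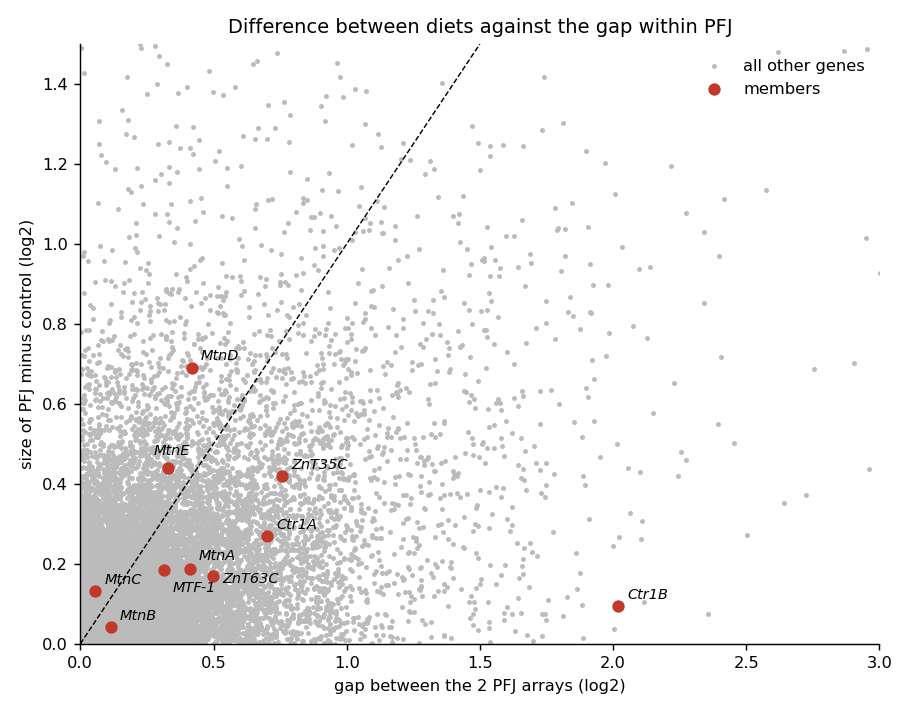
Size of the log2 difference between diets (vertical axis) against the gap between the PFJ arrays (horizontal axis, log2) for all genes in grey and the members in red; the dashed line marks equality, and 93 genes lie outside the axes. MtnD, at a difference of 0.69 and a gap of 0.42, lies above the line, and Ctr1B, at 0.09 and 2.02, lies far to its right.

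The gene with the profile nearest to that of Ctr1B across the 4 arrays was Gasp, a chitin-binding protein gene of cuticle and airway linings, at a Euclidean distance of 0.20 between profiles centred on their own means. Gasp read 8.22 and 8.15 in controls, against 7.24 and 8.98 under PFJ, low in PFJ replicate 1 and high in PFJ replicate 2 like Ctr1B. The next were Sodh1, a sorbitol dehydrogenase gene (0.26), ea, which encodes the serine protease Easter (0.31), the cytochrome P450 gene Cyp6a9 (0.31) and Sr-CI, a scavenger receptor gene on the hemocyte list (0.34). Sr-CI read 6.20 and 6.26 in controls, against 5.27 and 6.85 under PFJ. In PFJ replicate 1, where Sr-CI was low, 5 of 8 genes on the hemocyte list, among them Hml and Pxn, read above both controls. The other 3 read below them. Between the PFJ arrays, 7 of the 8 hemocyte genes read higher in replicate 2, as Ctr1B did, with Pxn the exception. This held for 45.1% of all genes. Vha100-4, a proton pump subunit gene of the acid-secreting copper cells of the midgut, read 3.64 and 3.43 in controls, against 3.13 and 4.54 under PFJ, and it was the measured one of 2 listed copper cell markers. Within controls the midgut enzyme mean was 1.79 apart and Ctr1B 0.09 apart. Within PFJ the midgut enzyme mean was 0.97 apart and Ctr1B 2.02 apart, both higher in replicate 2. There 11 of the 13 measured midgut genes read higher than in PFJ replicate 1. Whether other tissues took part in the Ctr1B gap was not tested.

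The genes nearest to MtnD by the same measure, which is not scaled for the range of a profile, were Mdh1, a malate dehydrogenase gene (0.04), and Gclm, which encodes a subunit of glutamate-cysteine ligase in glutathione synthesis (0.05). Mdh1 read 5.65 and 5.48 in controls, against 6.04 and 6.46 under PFJ, and Gclm read 5.96 and 5.80 in controls, against 6.32 and 6.78 under PFJ. They were followed by the cytochrome P450 gene Cyp4e2 (0.07), CG14687 (0.08) and CG43071 (0.09). Of 13401 other genes, 62 lay within 0.25 of MtnD and 1 within 0.25 of Ctr1B. These counts are not on a like scale, since the range over the arrays was 0.96 for MtnD and 2.02 for Ctr1B. The nearest member was MtnE, at a distance of 0.50 and place 565, and MTF-1 followed at 0.52 and place 644. With 4 arrays, such distances describe these libraries only.

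Of the zinc exporters, ZnT35C, which loads zinc into vesicles and is strongly expressed in Malpighian tubules, read 6.20 and 5.18 in controls, against 5.73 and 6.49 under PFJ. Control replicate 1 and PFJ replicate 2 were the high arrays, the diets overlapped, and the gap of 1.02 within controls exceeded the difference of 0.42 (SE 0.48). Only 9.57% of all genes had a control gap this wide. The tubule marker Alp4, an alkaline phosphatase gene, was high in the same arrays, at 6.56 and 5.48 in controls, against 5.47 and 6.43 under PFJ. The whole tubule list did not show this, as 6 measured genes of 8 listed had means of 5.40 and 5.38 in controls, against 5.19 and 5.47 under PFJ, at single levels from 4.72 to 6.56. The part of tubule tissue in ZnT35C was not tested. ZnT63C, which exports zinc from gut cells towards the body, read 6.57 and 6.80 in controls, against 6.27 and 6.77 under PFJ. These overlap, with PFJ replicate 1 lowest, and the difference was -0.17 (SE 0.25, 95% interval -0.86 to 0.52).

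Across the set, both PFJ arrays lay above both controls in 3 members (MtnD, MtnE and MTF-1) and below them in 0. Over all genes this held for 15.5% above and 13.1% below, together 28.6%, so 3 of 10 is near the background. With each array centred on its median, MtnE and MTF-1 overlapped and MtnD did not. With quantile normalisation repeated, MtnE overlapped too. The difference was wider than the gap within either diet in 1 member, MtnD, and in 18.4% of all genes. The median log2 difference of the members was 0.11, and that of all genes was 0.01. PFJ replicate 2 read above PFJ replicate 1 in 9 of the 10 members, MtnC being the exception, and in 45.1% of all genes. It was the highest of the 4 arrays in 7 members, among them MtnA, MtnD, MtnE and Ctr1B, and in 18.8% of all genes. PFJ replicate 2 also had the higher mean of the PFJ arrays for midgut enzymes (7.64 against 6.67) and for hemocyte markers (4.97 against 4.49). The testis mean was the lower one there (4.46 against 5.54), and the fat body means were 11.37 and 11.35. The part of these tissues in the members' values was not tested.

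**Figure D3:**
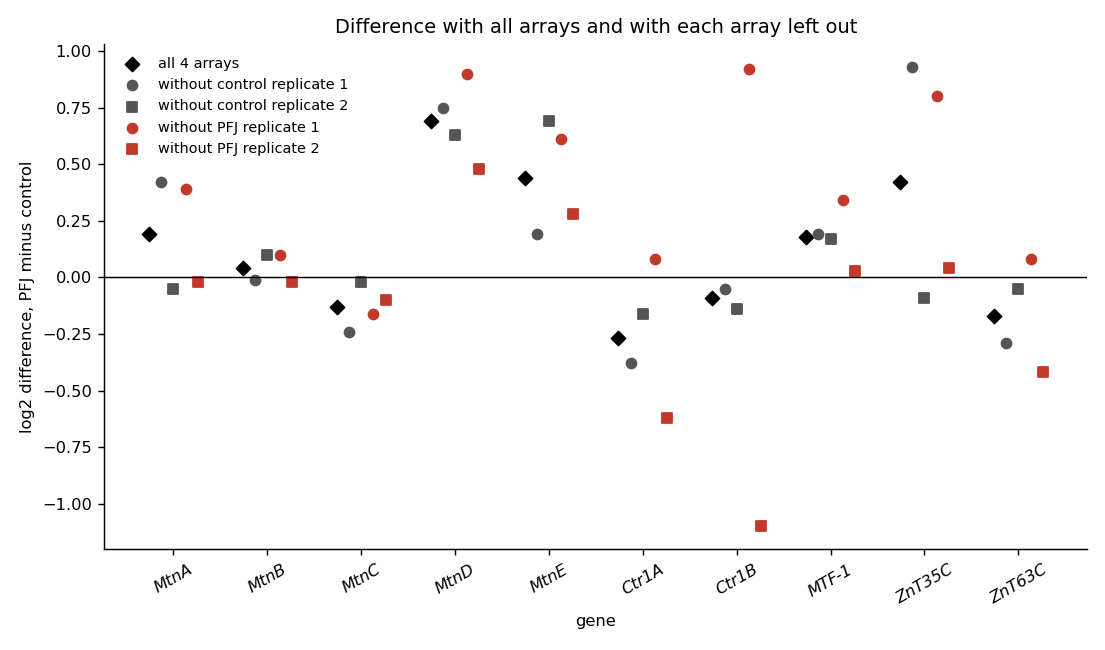
PFJ minus control log2 difference of each member with all 4 arrays (black diamonds) and with each array left out in turn (grey for controls, red for PFJ). MtnD, whose groups do not overlap, stays above 0 by construction, from 0.48 to 0.90, while Ctr1B runs from -1.10 to 0.92.

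Leaving out single arrays separated the members that kept their direction from those that did not. Where an array was left out, the lone array of that diet was taken to vary like the others. MtnD differed by 0.48 without PFJ replicate 2 and by 0.90 without PFJ replicate 1, and MtnE by 0.19 to 0.69, the ends coming from fits that lacked control replicate 1 and control replicate 2. MTF-1 and MtnC also kept their direction, at 0.03 to 0.34 and at -0.24 to -0.02. The groups of MtnD, MtnE and MTF-1 did not overlap, so leaving out an array could not reverse these members. MtnA turned to -0.05 without control replicate 2 and to -0.02 without PFJ replicate 2, and MtnB to -0.01 without control replicate 1 and to -0.02 without PFJ replicate 2. Without PFJ replicate 1, Ctr1B differed by 0.92 and Ctr1A and ZnT63C by 0.08 each, and without PFJ replicate 2, Ctr1B differed by -1.10. ZnT35C turned to -0.09 without control replicate 2. No member passed the adjusted test in any of these fits. Dropping PFJ replicate 1 gave a median of the members of 0.37, and dropping PFJ replicate 2 gave -0.02. It was 0.09 when control replicate 1 was dropped and -0.04 when control replicate 2 was.

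Other genes of copper and zinc handling gave no called difference either. Of 25 listed genes outside the set, 22 had a row of their own, and 0 of them passed the adjusted test or an unadjusted p under 0.05. Differences were positive in 12 and negative in 10, with a median of 0.05. The diets did not overlap in 7 of the 22, with 4 higher and 3 lower, against 15.5% and 13.1% of all genes.

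The largest of these differences were negative and belonged to zinc transporter genes. Zip89B, a zinc importer gene active in the midgut, read 6.75 and 6.20 in controls, against 5.38 and 5.92 under PFJ. Both PFJ arrays were below both controls, the difference of -0.82 (SE 0.31, 95% interval -1.69 to 0.05) exceeded the gap within either diet, and its unadjusted p was 0.0588 by limma. ZnT77C, a zinc exporter gene, read 5.81 and 6.50 in controls, against 5.29 and 5.56 under PFJ. It differed by -0.73 (SE 0.31, unadjusted p of 0.0748 by limma), again with both PFJ arrays below. A smaller difference of -0.24 (SE 0.17) was found for foi, a zinc importer gene needed for cell migration in the embryo.

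The genes without overlap in the other direction had small differences. Atox1, whose product hands copper to the ATP7 pump, differed by 0.24 (SE 0.21). Zip42C.2, a zinc importer gene of the midgut, differed by 0.19 (SE 0.16), Catsup, whose product releases zinc from the secretory pathway, by 0.15 (SE 0.16), and Scox, which delivers copper to cytochrome c oxidase, by 0.08 (SE 0.16). Centring the arrays on their medians made all 4 overlap. By role, 5 of 7 copper genes, 2 of 5 zinc exporters and 5 of 10 zinc importers had positive differences, and 51.9% of all genes did.

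**Figure D4:**
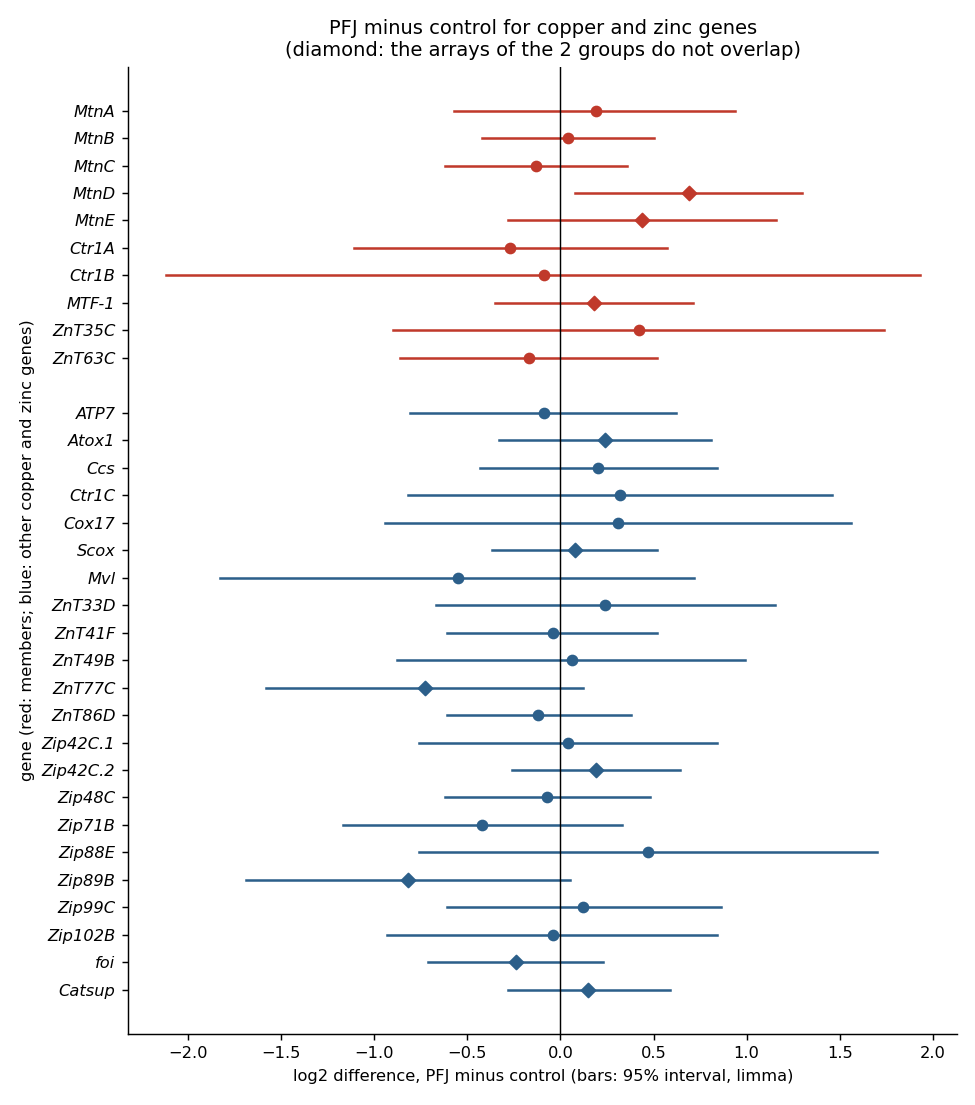
PFJ minus control log2 difference with its 95% interval from limma for the 10 members (red) and 22 other copper and zinc genes (blue); diamonds mark genes whose diets do not overlap. The interval of MtnD, 0.08 to 1.30, lies above 0 before adjustment, those of the other genes include 0, and that of Ctr1B is the widest among the members.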

How the data were processed

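Per the labels' protocols, biotin-labelled cDNA was made from 4 pools of total RNA (2 control, 2 PFJ). The deposited log2 intensities are the authors' RMA output from Affymetrix Expression Console, version 1.4.0.38, per the submitters' processing notes; the range of the values gives the log2 scale. RMA assumes that most genes do not differ. The build and annotation are not given in the sources used here.

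Of 16322 rows, 13441 had 1 symbol in the platform table, 555 had several and 2326 had none. For 37 genes with several rows the brightest was kept, which left 13402 genes. PFJ was compared with control in R 4.3.3 with limma 3.58.1 (lmFit and eBayes, two-sided, no covariate, 4.01 degrees of freedom), adjusted over all genes, and the procedure was tested on simulated data. Alternatives covered quantile normalisation repeated, median centring, filters on dim genes, row choice, an intensity trend, a replicate block and each array left out. The members and lists were chosen with earlier results of these data known. All members are named; pathway genes are named where diets did not overlap, at most 8; likeness names the 5 nearest genes. Listed genes without a row of their own, such as Sod1, were not used here. The number of arrays limits precision.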

Additional observations from a re-analysis of the deposited data

How the results depend on the processing

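In 12 other settings limma again called 0 genes after adjustment, and the unadjusted count, 373 as reported, ran from 192 to 945. It was 192 with the filter at the median level, 945 without control replicate 1 and 566 without PFJ replicate 2. For MtnD, only quantile normalisation repeated (0.74) and median centring (0.66) could have changed the direction or the lack of overlap. The filters, row choice, intensity trend and replicate block left its difference at 0.69. Groups that do not overlap stay apart by construction when an array is left out. MtnD kept its direction and its lack of overlap in all 12 settings, at 0.48 to 0.90. Its unadjusted p ran from 0.0233 to 0.116 and was above 0.05 in 6 of them, which were median centring (0.0543), the filter at the median (0.0515), an intensity trend (0.0550) and the fits without control replicate 1 (0.0784), control replicate 2 (0.116) and PFJ replicate 2 (0.115), all by limma. With median centring MtnD was the only member without overlap (1 in place of 3). With quantile normalisation repeated MtnE overlapped as well, at 0.39, and MtnC became lower without overlap. Repeating that normalisation turned MtnB to -0.06 and MtnF to -0.03. With single arrays left out, the ranges were -0.05 to 0.42 for MtnA, -0.02 to 0.10 for MtnB, -0.62 to 0.08 for Ctr1A, -1.10 to 0.92 for Ctr1B, -0.09 to 0.93 for ZnT35C, -0.42 to 0.08 for ZnT63C, -0.15 to 0.24 for MtnF and -0.04 to 0.37 for the median of the members. Members without overlap then numbered 3 to 7 higher and 0 to 3 lower, where 1 array in place of 2 makes overlap rarer. Without PFJ replicate 1, the count of 7 higher stood beside 27.5% of all genes, and in the other 3 fits 3 to 5 higher stood beside 33.1% to 36.6%. The counts of 0 to 3 lower stood beside 28.7% to 34.9% of all genes. Otherwise the cause was not tested. With the replicate number as a block, the members' median was 0.11, MtnD was at 0.69 (unadjusted p 0.0490 by limma) and 0 genes were called; the deviations of same-numbered arrays correlated at 0.337 across genes, and the groups share only a number in the labels. The filter at the lower quartile removed MtnC, and that at the median removed MtnB, MtnC and MtnE. Signal over background was not analysed here, which limits what can be said of the dim genes MtnB, MtnC and MtnE.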
